A study of Mus musculus with 4 samples.

Results

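The genes described here are 10 members of the AP-1 and immediate early group: Fos, Fosb, Fosl1, Fosl2, Jun, Junb, Jund, Egr1, Atf3 and Ier3. They were chosen by gene symbol, and all 10 have a row among the 16857 genes of the deposited table. All 10 also passed the filter on low values. RNA was sequenced from 4 mouse adenoma colonoid lines, which are epithelial structures grown in culture, with a single library from each line. The G0 group holds lines 75 and 179, labelled Apcnull with a heterozygous LSL-mTERT allele. The G2 group holds lines 157 and 236, labelled Apcnull with a homozygous LSL-mTERT allele. The source names of all 4 lines give Apcmin, so the control group carries the Apc alteration too. Neither treatment, time nor age is given, and the series text names low and high chromosomal instability without saying which group is which. Nothing states that the lines came from separate mice, so p-values measure only the spread between these lines.

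AP-1 is a dimeric transcription factor. Its subunits belong to the FOS family, which must pair with a JUN protein to bind DNA, and to the JUN family, whose members can also pair with each other. Many of these genes are immediate early genes: growth factors, serum or stress switch them on within minutes through kinases such as ERK and JNK, without new protein synthesis. In the intestine, JUN and FOS proteins are known to act downstream of growth factor and stress signals, and Jun is known to be required for efficient adenoma growth in mice with mutant Apc. The levels below are transcript levels; kinase activity and protein were not measured.

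The libraries held between 16545429 and 17901744 recovered counts. Tert, which the labels give as altered, had 93.3 and 97.5 normalized counts in the G0 libraries and 0 and 1.0 in the G2 libraries. A normalized count is a recovered whole count divided by the authors' size factor. Epithelial identity was checked with 7 markers, and Epcam, Krt8 and Krt18 were abundant in every library, with Epcam lowest at 5994.5 normalized counts. Of the other 4, Cdh1 was higher in G2 and Cdx2 and Vil1 were lower (limma adjusted p = 0.0171, 0.000430 and 0.0103), and Krt20 stood at 0 to 1.0 in G0 and at 93.8 and 4.9 in G2. The 6 blood cell markers with a row summed to 1132.1 and 2111.8 in G0 and to 1179.9 and 1924.6 in G2. Nearly all of that was Cd68, and Ptprc was at 0 in all 4 libraries. Of the 5 tested, limma called 1 higher in G2 and 0 lower. That was Csf1r, at 0 in both G0 libraries and at 16.1 and 4.9 in G2 (adjusted p = 0.0431). Laptm5 read 1.0 in each G0 library and 7.1 and 23.5 in G2 (limma adjusted p = 0.0550). The 7 fibroblast and smooth muscle markers summed to 12.8 and 8.1 in G0 and to 194.6 and 444.7 in G2. In G2 almost all of that was Acta2, at 184.6 and 434.0. In G0 Acta2 stood at 7.9 and 4.1 and Col1a1 at 4.9 and 4.1, while Dcn and Pdgfra were at 0 in every library. Of the 3 tested, limma called 2 higher in G2, Acta2 and Col3a1, and 0 lower. Col3a1 stood at 0 in both G0 libraries and at 7.1 and 6.8 in G2 (adjusted p = 0.0404). The 3 endothelium markers summed to 3.9 and 4.1 in G0 and 48.4 and 46.9 in G2, most of it Tek. Tek was the 1 endothelium marker tested, and limma called it higher in G2 (adjusted p = 0.00587). The 5 neuron and glia markers summed to 22.2 to 35.3 across all libraries, with S100b at 0, and limma called 0 of the 2 tested. Transcripts of the Y-linked genes Ddx3y, Uty, Kdm5d and Eif2s3y were at 0 in both G0 libraries and between 296.2 and 526.4 normalized counts in both G2 libraries. The part of these marker differences in the results below was not tested, and the presence of Y transcripts cannot be told apart from the group.

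Upstream sequences are shown for 3 of the subunit genes, chosen for their unlike test results: Jun was higher in G2, Fos was lower, and Junb did not pass. Differences between these genes were not tested. RefSeq promoter sequences of GRCm38.p6 were used for 8 of the 10 members, all except Fosl1 and Egr1. Each line gives the 120 bases that end just before the annotated start, 5′ to 3′ on the strand of the gene, with capitals for matches to the motifs named in the next paragraph.
Jun, chr4:95052223-95052342, minus strand: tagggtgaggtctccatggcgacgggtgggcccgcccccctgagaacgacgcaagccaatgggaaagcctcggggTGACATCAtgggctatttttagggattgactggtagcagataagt
Fos, chr12:85473770-85473889, plus strand: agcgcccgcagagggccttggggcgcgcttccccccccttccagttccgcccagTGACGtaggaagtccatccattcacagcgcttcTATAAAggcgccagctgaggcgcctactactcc
Junb, chr8:84978749-84978868, minus strand: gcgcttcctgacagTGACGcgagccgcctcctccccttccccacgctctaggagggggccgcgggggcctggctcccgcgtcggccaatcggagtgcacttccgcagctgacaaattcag

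The motifs were searched on both strands of 300-base windows, from 250 bases before to 50 after the start. The search covered 32851 promoters, without those of chromosome 18 or those not 300 bases long. Shares of all promoters below are shares of these. Egr1 lies on chromosome 18, so its absence follows from that exclusion and does not show that a RefSeq promoter is lacking. The octamer TGACATCA, the known variant AP-1 site of the Jun promoter, begins 45 bases before the Jun start and was in 1 of the 8 member windows, against 3.62% of all promoters. The consensus AP-1 site TGANTCA was in 0 of 8 (7.81% of all promoters), the cyclic AMP response element TGACGTCA in 0 of 8 (1.79%) and the CArG box bound by serum response factor in 0 of 8 (1.63%). The EGR site GCGNGGGCG was in 2 of 8 windows, those of Fosl2 and Fosb, against 5.55%. The TATA sequence TATAAA was in 2 of 8 windows, Fos and Junb, against 13.6%; in Fos it begins 33 bases before the start and in Junb at the start itself, outside the printed stretch. The 5 bases TGACG, the core of the cyclic AMP response element, were added after the sequences were seen; they were in 4 of 8 windows (Fos, Fosb, Junb and Atf3), against 20.8%, and any TGACGTCA would contain them. A match is a match of letters only, and sites more than 250 bases before the start were not searched. For Fos and Jun the RefSeq start is also the outermost start in GENCODE M21. The outermost GENCODE start of Junb lies 30 bases downstream of the RefSeq start, so its TATAAA match lies before the GENCODE start. For Fosl2 GENCODE holds a start 671 bases further upstream, for Atf3 a start 34706 bases upstream, and for Jund the GENCODE start lies 1210 bases downstream. The windows of Fosl2, Atf3 and Jund may not be the promoter in use.

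Between G2 and G0, Fosl2, Jun and Jund rose by 1.88-fold to 2.04-fold, Fos and Fosl1 fell, and the other 5 members did not pass the test. The test was limma on log2(normalized count + 1) with Benjamini-Hochberg adjustment over 13981 genes, two-sided, at a threshold of 0.05. With 3 higher and 2 lower, 5 of the 10 members passed (50%), against 10.5% of all genes tested, 5.93% higher and 4.56% lower. Both G2 libraries lay outside the G0 range for 7 of the 10 members, 5 above and 2 below. That held for 57.8% of all genes tested, 29.2% with G2 above and 28.6% with G2 below. The median log2 fold change of the members was 0.54, or 0.25 without G2 replicate 1, and 0.01 over all genes. Each of the 5 calls ended when any single library was left out, and also in limma without an intensity trend, and 4 of the 5 ended without a filter on low values, although none of these 5 changed direction in any of the 11 settings. In bulk RNA, fewer expressing cells and less RNA per cell cannot be told apart.

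**Figure D1:**
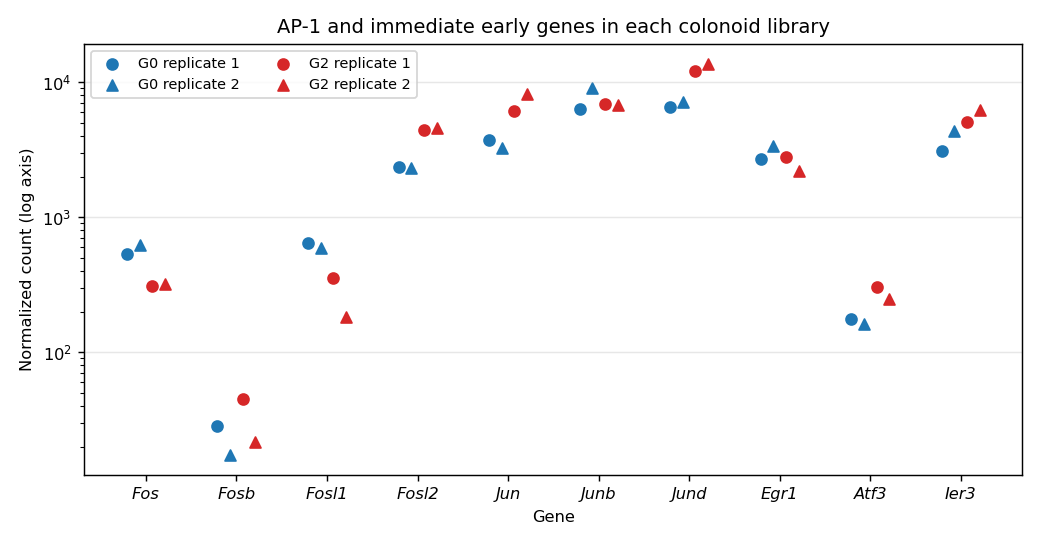
Normalized counts of the 10 genes in each of the 4 libraries, on a log axis; blue symbols are G0, red symbols G2, circles replicate 1 and triangles replicate 2. For Fosl2, Jun and Jund both red symbols lie above both blue ones, and for Fos and Fosl1 both lie below.

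The FOS family moved in opposite directions within itself. Fos, the prototype immediate early subunit, lies on chromosome 12 from 85473890 to 85477274 and has 4 exons. Its G0 libraries had 532.2 and 622.7 normalized counts and its G2 libraries 309.6 and 321.6. Both G2 lines were below both G0 lines and close to each other. Fos thus fell 1.83-fold, from 577.4 ± 64.0 to 315.6 ± 8.5 (SD, n = 2 each; log2 fold change -0.87, SE 0.17, limma adjusted p = 0.0237).

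Fosl1, which encodes FRA1, a subunit without the C-terminal transactivation domain of FOS, lies on chromosome 19 from 5447698 to 5455938. Its libraries read 646.1 and 595.3 in G0, against 357.0 and 181.8 in G2. The groups did not overlap, and the G2 lines were further apart than the G0 lines, with line 236 the lowest. The fall was 2.30-fold, between means of 620.7 ± 35.9 and 269.4 ± 123.9 (log2 fold change -1.28, SE 0.31, limma adjusted p = 0.0446), and this was the call nearest to the threshold. Its log2 fold change ranged from -1.76 without G2 replicate 1 to -0.79 without G2 replicate 2. The gene Ccdc85b overlaps Fosl1 on the opposite strand, and the strand setting of the counting is not given in the sources used here, so reads of the pair may have been shared. Ccdc85b stood between 299.5 and 400.2 normalized counts in the 4 libraries, with overlapping groups.

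Fosl2, which encodes FRA2, the other subunit lacking that domain, lies on chromosome 5 from 32136472 to 32157840. The G0 lines had 2359.5 and 2316.0 normalized counts and the G2 lines 4428.3 and 4543.2. Lines of the same group differed by 1.84% and 2.60%, the tightest agreement of any member across both groups. Fosl2 rose 1.92-fold, from 2337.8 ± 30.8 to 4485.8 ± 81.3 (log2 fold change 0.94, SE 0.12, limma adjusted p = 0.00573), the smallest p among the members and 318th of all genes. It was the 1 member that still passed without a filter on low values (adjusted p = 0.0238). Fosb, a further FOS paralogue, was scarce, with 28.5 and 17.3 in G0, against 45.4 and 21.5 in G2. The groups overlapped, and the interval of its log2 fold change ran from -0.70 to 1.66 (estimate 0.48, adjusted p = 0.578), so a 2-fold rise of Fosb lay inside it. Its ratio of 1.46 became 0.94 without G2 replicate 1, a change of direction, and 1.94, 1.17 and 1.98 without G0 replicate 1, G0 replicate 2 or G2 replicate 2.

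**Figure D2:**
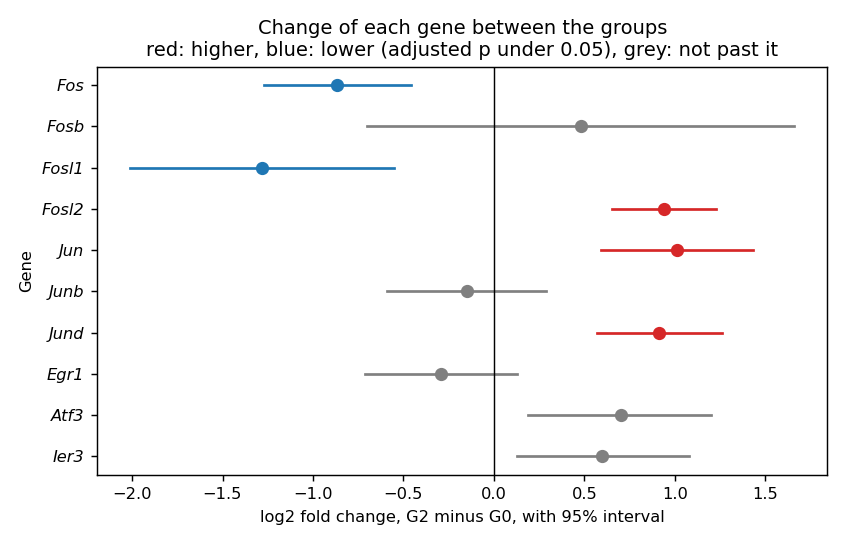
Log2 fold change of each gene, G2 minus G0, with its 95% interval from limma; red marks genes past the threshold and higher, blue past it and lower, grey not past it. Fosl2, Jun and Jund sit between 0.91 and 1.01, and Fos and Fosl1 at -0.87 and -1.28.

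Among the JUN family, Jun and Jund rose and Junb did not pass. Jun, the prototype AP-1 partner and a main substrate of JNK, is a gene of 1 exon on chromosome 4 from 95049036 to 95052222. Its libraries held 3738.1 and 3238.4 normalized counts in G0 and 6073.2 and 8124.7 in G2. Every G2 value exceeded every G0 value, with the widest gap between lines inside G2. Jun rose 2.04-fold, from 3488.2 ± 353.4 to 7098.9 ± 1450.6 (log2 fold change 1.01, SE 0.18, limma adjusted p = 0.0157).

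Jund, the JUN protein best known for steady expression and slower growth, is a gene of 1 exon on chromosome 8 in the GENCODE annotation, and its RefSeq span is 70697739 to 70700616. It had 6593.5 and 7113.6 normalized counts in G0, against 12126.1 and 13710.8 in G2. The groups were far apart compared with the 7.89% and 13.1% between lines of the same group. Jund rose 1.88-fold, from 6853.6 ± 367.8 to 12918.5 ± 1120.6 (log2 fold change 0.91, SE 0.15, limma adjusted p = 0.0111).

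Junb, which can restrain JUN activity and is itself an immediate early gene, lies on the same chromosome from 84976909 to 84978748. It had 6352.9 and 8987.8 in G0 and 6841.6 and 6801.2 in G2, so both G2 lines fell inside the G0 range. Its log2 fold change was -0.15, with an interval from -0.59 to 0.29 (adjusted p = 0.651), and it read 0.10 without G0 replicate 2. That interval excludes a rise as large as the estimates for Jun and Jund; the difference between these genes was not itself tested. Prdx2 overlaps Junb on the opposite strand and had 2968.0 to 4441.6 normalized counts, so reads may have been shared here as well. Antisense genes annotated over Jun and Jund, Junos and Gm11175, have no row in the table.

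Levels of different genes were compared per kilobase (kb) of the principal GENCODE M21 transcript. On that scale Junb, Jund and Ier3 were the most abundant members, each above 98% of the 13746 tested genes with a length. Jund had 4108.8 ± 220.5 normalized counts per kb in G0 and 7744.9 ± 671.8 in G2, and Junb 4240.1 ± 1029.9 and 3770.8 ± 15.8. In G0 these 2 did not differ beyond their spread, whereas in both G2 libraries Jund stood above Junb, at ratios of 1.92 and 2.19. Ier3 stood at 3300.3 ± 807.1 in G0, within the spread of Junb, and at 4972.1 ± 749.1 in G2, above Junb and below Jund in both libraries. Jun came next, at 1093.8 ± 110.8 and 2226.1 ± 454.9. Egr1 stood at 680.2 ± 105.6 and 556.6 ± 97.8. Fosl2 had 357.6 ± 4.7 per kb in G0, next to Fosl1 at 333.0 ± 19.3 and Fos at 273.9 ± 30.4. In G2 Fosl2 had 686.2 ± 12.4, while Fos (149.7 ± 4.0), Fosl1 (144.5 ± 66.5) and Atf3 (138.8 ± 20.1) could not be separated. Atf3 had 85.0 ± 5.1 in G0. Fosb was last in both groups, at 6.0 ± 2.1 and 8.8 ± 4.5 per kb.

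Per kb of transcript, the sum of the 4 FOS family transcripts was nearly level across the libraries while its make-up was not. Summed per kb, the family stood at 967.6 and 973.6 in G0 and at 1027.8 and 950.8 in G2. Fosl2 made up 37.3% and 36.4% of that sum in the G0 libraries and 65.9% and 73.1% in the G2 libraries. Fosl1 made up 35.8% and 32.8% in G0, against 18.6% and 10.3% in G2. The share of Fos was 26.1% and 30.3% in G0, and 14.3% and 16.0% in the G2 libraries. Per kb, the G0 lines therefore held 3 FOS family transcripts at similar levels, and the G2 lines held mostly Fosl2. Without dividing by length, Fosl2 already held 66.2% and 65.2% of the family in G0 and reached 86.1% and 89.6% in G2. The undivided family sum was higher in both G2 libraries than in both G0 libraries, so the level sum holds only per kb. The JUN family sum was higher in both G2 libraries, at 12956.3 and 14527.3 per kb against 8636.9 and 10248.6. Within it the share of Jund was 45.8% and 41.6% in G0 and 56.1% and 56.6% in G2, and that of Junb 40.7% and 48.5% in G0 and 29.2% and 25.9% in G2. Jun held 13.6% and 9.91% in G0, against 14.7% and 17.5% in G2. Per kb, the JUN family exceeded the FOS family 8.93-fold and 10.5-fold in the G0 libraries and 12.6-fold and 15.3-fold in the G2 libraries. Without dividing by length, this ratio was lower in every library and the groups overlapped. These shares are descriptions of 4 libraries, and an exact permutation test of 2 against 2 could not give a p below 0.333.

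**Figure D3:**
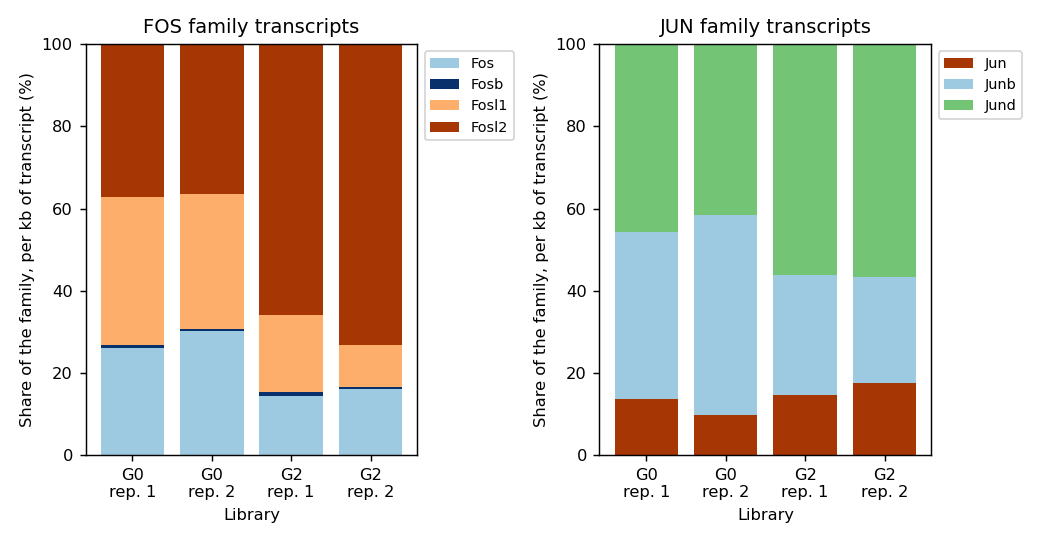
Share of each gene in the summed FOS family (left) and JUN family (right) transcripts per kb, in percent, for each library. Fosl2 takes 36.4% to 37.3% of the FOS bars in G0 and 65.9% to 73.1% in G2, and Jund takes 41.6% to 45.8% and 56.1% to 56.6% of the JUN bars.

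The 3 members outside these families did not pass. Egr1, the zinc finger factor that answers serum and ERK signals, lies on chromosome 18 from 34861207 to 34864956. It had 2715.0 and 3384.6 normalized counts in G0 and 2805.6 and 2185.6 in G2, and the groups overlapped. Its log2 fold change was -0.29, with an interval from -0.71 to 0.13 (limma adjusted p = 0.335), the upper end being a 1.09-fold rise. Atf3, a stress-induced bZIP factor that pairs with JUN proteins and often represses, lies on chromosome 1 from 191170296 to 191183333. It had 175.8 and 161.5 in G0 and 303.6 and 247.3 in G2. Both G2 lines were above both G0 lines, at a ratio of 1.63, but the change missed the threshold (log2 fold change 0.70, SE 0.21, unadjusted p = 0.0135, adjusted p = 0.0864). Ier3, a small early response protein tied to survival and NF-kappaB signals, lies on chromosome 17 from 35821713 to 35822911. It had 3087.1 and 4378.1 in G0, against 5024.3 and 6222.5 in G2. The groups again did not overlap, at a ratio of 1.51, and the change also missed the threshold (log2 fold change 0.60, SE 0.20, unadjusted p = 0.0202, adjusted p = 0.109). The intervals for Atf3 and Ier3 ran from 0.19 to 1.20 and from 0.13 to 1.08 on the log2 scale.

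Between lines of the same group, some members differed more than others. The median absolute log2 difference between the lines was 0.22 over the members in G0 and 0.30 in G2, against 0.26 and 0.21 over all genes tested. Replicate 2 was the higher line for 5 of the 10 members in G0 and for 5 of 10 in G2, so neither line of a group was higher throughout. The largest differences in G0 were those of Fosb (log2 -0.69, replicate 2 minus replicate 1), Junb (0.50) and Ier3 (0.50). In G2 they were those of Fosb (-1.04), Fosl1 (-0.97) and Jun (0.42). Fosl2 was the most even, at -0.03 and 0.04.

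Other immediate early genes were a mixed group. Of 52 tested, 11 rose and 3 fell (26.9%, against 10.5% of all genes), with a median log2 fold change of 0.20. Nr4a2, an orphan nuclear receptor, had 275.9 and 227.5 normalized counts in G0 and 1722.5 and 811.3 in G2, a rise of 5.03-fold (adjusted p = 0.00920). The antiproliferative gene Btg1 rose 2.0-fold (adjusted p = 0.00689), the stress sensor gene Gadd45b 1.88-fold, the kinase gene Sik1 1.82-fold and the helix-loop-helix inhibitor Id2 2.2-fold. The largest fall was that of Ctgf, a matricellular gene also driven by YAP and serum response factor, with 17936.4 and 26928.8 in G0 and 6828.5 and 10435.4 in G2 (log2 fold change -1.38, adjusted p = 0.0226). Klf4 and Csrnp1, named after their values were seen, were the other 2 that fell, with adjusted p of 0.0340 and 0.0487. Egr3, an Egr1 paralogue also named after its values were seen, passed (adjusted p = 0.0371) at 1.0 normalized count in each G0 library and 11.1 and 11.7 in G2. Ctgf has no length under this symbol in GENCODE M21, so it has no level per kb. Among the genes with a length, the most abundant per kb did not pass: Phlda1 had 11945.8 to 17666.8 normalized counts, Myc 7919.4 to 10733.9, Bhlhe40 3797.0 to 6463.5 and Mcl1 4024.6 to 6302.1 across the 4 libraries.

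Of 34 other bZIP genes tested, 5 rose and 1 fell (17.6%, against 10.5% of all genes), with a median of 0.33. Maf, a large bZIP factor that can bind AP-1-like sites, rose 3.12-fold, from 323.0 and 274.3 to 949.0 and 912.0 normalized counts (adjusted p = 0.00216). Creb3l2, a membrane-bound bZIP factor of the secretory pathway, rose 2.09-fold, the differentiation factor gene Cebpa 2.07-fold and Nfe2l3 2.51-fold. Creb5 rose from 7.9 and 10.2 to 37.3 and 42.0 (adjusted p = 0.0266). The gene that fell was Nfe2l2, which encodes NRF2, the main activator of antioxidant genes, from 12898.3 and 12269.8 to 7468.9 and 6675.1 (adjusted p = 0.0145). It was also the most abundant bZIP gene of the list per kb. The next in abundance did not pass, with Atf4 at 2501.3 to 3130.7, Xbp1 at 1705.4 to 1994.0 and Atf6b at 1921.6 to 2254.1 normalized counts.

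The genes upstream of AP-1 held no call. Of 41 tested kinases, RAS and RAF genes, serum response factor genes and their regulators, limma called 0 (0.0%, against 10.5% of all genes), with a median of 0.07. An unadjusted p under 0.05 was held by 5 of the 41, against 3743 of all 13981 genes tested. The smallest adjusted p were those of Rps6ka5 and Rps6ka2, named after their values were seen, at 0.0505 and 0.0521. The kinases with the highest levels per kb stood at 5141.2 to 7658.5 normalized counts for Mapk3, which encodes ERK1, 3862.5 to 4824.0 for Map2k2 and 3602.3 to 5883.5 for Rps6ka1. Mef2d, a transcription factor that binds the Jun promoter, stood at 2016.5 to 2608.6.

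Genes often cited as AP-1 targets moved both ways. Of 46 tested, 7 rose and 6 fell (28.3%, against 10.5% of all genes), with a median log2 fold change of 0.15. The cytokine genes Cxcl1 and Il1a rose, Cxcl1 from 28.5 and 20.3 to 305.6 and 245.3 and Il1a from 1.0 and 3.0 to 97.8 and 86.0 normalized counts (adjusted p = 0.00128 and 0.00224). Krt6a, a keratin of stressed epithelium, rose 2.97-fold. The genes that fell included Gclc and Hmox1, at 2.29-fold and 2.50-fold, and Gclm and Nqo1, named after their values were seen; these 4 are antioxidant genes best known as NRF2 targets. Several abundant genes of the list did not pass, among them Ccnd1 at 29908.4 to 35928.8 normalized counts, also named after its values were seen. Mmp10, Mmp12, Il6 and Dcn were at 0 in all 4 libraries.

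Of 18 genes cited as EGR1 targets, 1 rose and 0 fell (5.56%, against 10.5% of all genes), with a median of -0.08. The gene was Pdgfa, a growth factor, which rose 1.74-fold (adjusted p = 0.0247). Of 13 genes that stand with Atf3 in stress responses, 1 rose and 1 fell (15.4%, against 10.5% of all genes), with a median of -0.20; 2 of 13 is close to that share. Asns, an asparagine synthetase gene driven by ATF4, fell from 2846.5 and 3311.5 to 1336.3 and 1433.0 (adjusted p = 0.00430), and the p53 target Trp53inp1 rose 2.43-fold (adjusted p = 0.0482).

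**Figure D4:**
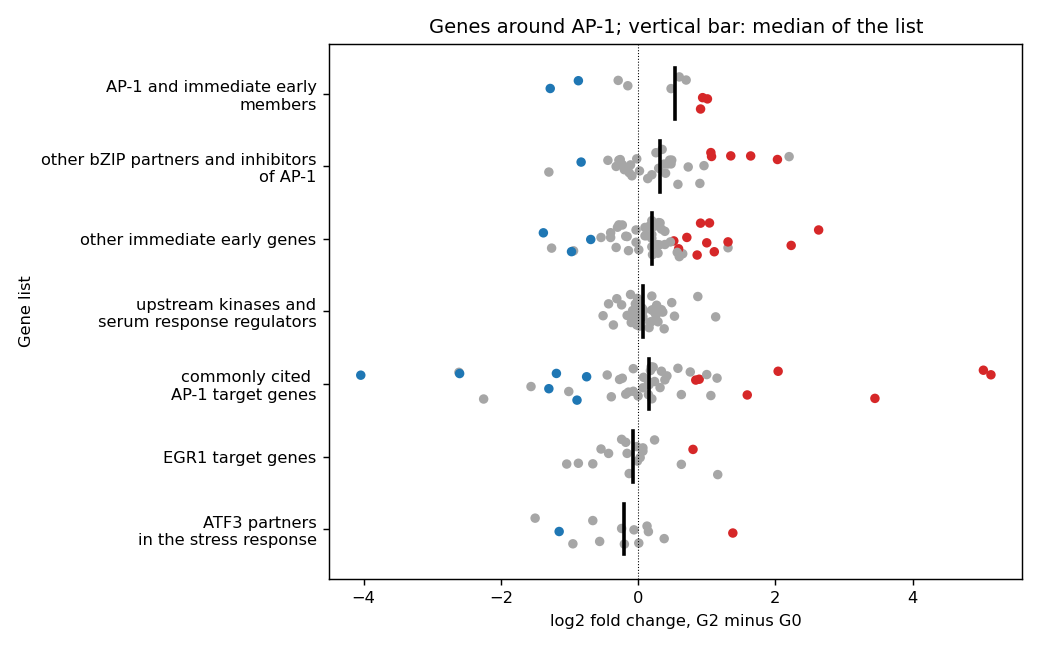
Log2 fold change, G2 minus G0, of each tested gene in the members and in 6 gene lists around AP-1; red marks genes past the threshold and higher, blue lower, grey not past it, and the black bar is the median. The medians run from -0.20 for the ATF3 partners to 0.54 for the members, and the list of upstream kinases and regulators holds only grey points.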

How the data were processed

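RNA from 4 colonoid lines was sequenced. The authors deposited log2 values on a variance-stabilized scale for 16857 genes. Tools listed in the submitters' processing notes are HISAT2 2.1.0, StringTie 2.1.1 and DESeq2 1.32.0, with the build mm10. Annotation, read filters and strand setting: not given in the sources used here. All libraries share the minimum 6.508, the value of a count of 0. Inverting the transform and applying a single factor per library gave whole numbers for 100% of values (tolerance 0.001). StringTie estimates coverage, so these may be rounded estimates. Because the deposited unit is a log scale, limma 3.58.1 (R 4.3.3, intensity trend, group as the only term) was fitted to log2(normalized count + 1), keeping genes that averaged at least 1 normalized count. Folds on this scale understate changes of low genes. Intervals are at 95%.

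The members and lists were chosen with earlier results of these data known. Text names all members, up to 6 called genes of each list by p, and up to 4 further abundant genes of 3 lists; other names are marked, and some genes that the rule takes are omitted. Lengths came from GENCODE M21 (97.8% of genes) and positions from RefSeq GRCm38.p6. Alternatives were a pseudocount of 5, no filter or a mean of at least 10, the deposited values, TMM scaling, no trend, a replicate block and leaving out each library.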

Additional observations from a re-analysis of the deposited data

How the results depend on the processing

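The 10 members kept their direction under a pseudocount of 5, both other filters, the deposited values, TMM scaling, no intensity trend and the replicate block. The 5 calls among them also held with a pseudocount of 5, a mean of at least 10, the deposited values and TMM scaling. Without a filter limma called 118 genes higher and 107 lower, with 1 member higher and 0 lower. There 5 of the 10 members had an unadjusted p under 0.05, against 3597 of 16857 genes. Without an intensity trend limma called 382 and 241 genes, with 0 and 0 members. In that setting 6 of the 10 members had an unadjusted p under 0.05, against 3230 of 13981 genes. The cause of the lower numbers of calls was not tested. When any of the 4 libraries was left out, 0 genes and 0 members passed in either direction, while 2376 to 3221 genes and 5 or 6 members had an unadjusted p under 0.05; the group with a lone library is then assumed to vary like the other, and few residual degrees of freedom remain. The median of the members ranged from 0.25 to 0.63 on leaving out libraries and was 0.28 on the deposited scale, which compresses low genes. On leaving out libraries Fosb ranged from -0.04 to 1.0 and Junb from -0.40 to 0.10. Same-numbered lines are different lines and share only a number; deviations of replicate 1 in the 2 groups correlated at 0.109 over genes. With the replicate block limma called 1859 genes higher and 1644 lower, with 5 members higher and 2 lower, Atf3 (adjusted p = 0.0158) and Ier3 (0.00222) being added.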
